A study of Mus musculus with 9 samples.

Results

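Clustered protocadherins are neuronal adhesion proteins whose genes stand side by side on chromosome 18 in the mouse. In the alpha and gamma clusters each variable exon has its own promoter and encodes a whole extracellular and transmembrane part, which is spliced to exons shared by the cluster and coding for a common cytoplasmic end, whereas each beta gene stands alone. A neuron uses a few of these promoters, chosen with the help of CTCF and cohesin, and the proteins recognise their own kind on other membranes, which lets the branches of a neuron tell self from non-self. The C-type isoforms at the end of the alpha and gamma clusters are used more uniformly than the alternate isoforms. Here the clustered protocadherins were taken as every gene whose GENCODE symbol begins with Pcdha, Pcdhb or Pcdhg, and 58 of the 47643 genes of the count matrix met this rule. They comprise 12 alternate alpha, 22 beta, 12 gamma A and 7 gamma B genes and 5 C-type genes, which are Pcdhac1, Pcdhac2, Pcdhgc3, Pcdhgc4 and Pcdhgc5. In GRCm38 they span chr18:36930184-37841873, all on the plus strand of one region of 912.0 kb.

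Hippocampal RNA of 9 mice was sequenced at 6 weeks of age, with 3 libraries in each of 3 groups. MRL/mpj mice served as the wild-type control, MRL/lpr mice are the lupus-prone strain of the same background with the lpr insertion in Fas in every cell, and MRL/lpr+MSC mice are MRL/lpr mice that had received mesenchymal stem cells. The labels call the first 2 groups untreated, whereas the series title gives PBS for the MRL/lpr mice without stem cells. They also name the strain of all 9 libraries as C57BL/6, against the MRL names of the series and its methods, and the route and dose of the stem cells are not given in the sources used here. Both MRL/lpr groups carry the lpr allele, so that comparing either with MRL/mpj cannot tell the allele from any other difference between the colonies.

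The labels of the MRL/lpr groups were in doubt before any comparison was made. In a second table of normalised values released with the study, of which 1999 genes were read, each column named MRL/lpr was proportional to the counts of the MRL/lpr+MSC library with the same replicate number. The ratio was the same within 1% for 100% of the genes with at least 20 counts, and for at most 5.51% of the genes when any MRL/lpr library was used instead. Its MRL/mpj columns fitted the MRL/mpj libraries of the same number in 100% of the genes. The groups are therefore named here as their libraries are labelled, and the results of both are given side by side. Library totals ranged from 19475804 to 26912031 counts. Fas reached 1.63 to 1.998 counts per 1000000 counts of the library (CPM) in MRL/mpj, 1.32 to 2.28 in MRL/lpr and 0.997 to 1.82 in MRL/lpr+MSC, so that its level did not separate the groups. All 10 markers of hippocampal principal neurons were detected. Other tissue differed between libraries of one group: the summed level of 8 choroid plexus markers was 9607 CPM in MRL/lpr replicate 2 and 4867 CPM in MRL/lpr+MSC replicate 2, and between 101.6 and 1090 CPM in the other libraries. In bulk RNA, fewer cells of a type and less RNA per cell cannot be told apart.

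The counts of the alpha and gamma genes stood for their variable exons, since reads in the shared exons fit every isoform of the cluster. Of the 5353 exon bases of Pcdha1, for example, 2489 are shared with no other annotated gene. Pcdhga10 had 0 counts in all 9 libraries, and 0 of its bases are free of overlap, because an antisense gene covers its variable exon. Pcdha4, with 404 free bases, had 0 to 4 counts per library. The library kit keeps no strand, which leaves reads of a gene and of an overlapping antisense gene indistinguishable. The zero of Pcdhga10 is thus no measure of its expression. Antisense genes also overlap part of the exons of Pcdha4, Pcdha6, Pcdha12, the second Pcdha11 gene, Pcdhb12, Pcdhga1, Pcdhga7, Pcdhga8, Pcdhgb7, Pcdhga11, Pcdhga12 and Pcdhgc3, and their reads cannot be separated from those of these genes. Of the 58 genes, 57 had a count in at least 1 library and 52 passed the filter on low counts in each comparison. The other 5 with a count were Pcdha4, Pcdha8, Pcdhb1, Pcdhgb8, which is annotated as a polymorphic pseudogene, and the second of 2 genes that carry the symbol Pcdha11. That second gene (ENSMUSG00000102206) had a single count in all libraries together, and Pcdha11 below means ENSMUSG00000007440.

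Of the C-type genes, 3 were the most abundant members. Per kilobase of unshared exon, the level averaged over the 9 libraries was 15.9 CPM for Pcdhgc5, 14.7 for Pcdhgc3 and 10.6 for Pcdhac2. The value for Pcdhgc3 would be 7.94 if antisense overlap is ignored. Pcdhgc4 (2.99) and Pcdhac1 (1.23) lay within the range of the alternate isoforms, so that abundance was not shared by all 5 C-types. Together the C-type genes held between 31.5% and 36.1% of all counts of the clustered protocadherins in a library, and Pcdhgc5 alone between 15.2% and 18.1%. Pcdhac2, the alpha isoform needed for the tiling of serotonergic axons, held between 5.85% and 8.98%.

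**Figure D1:**
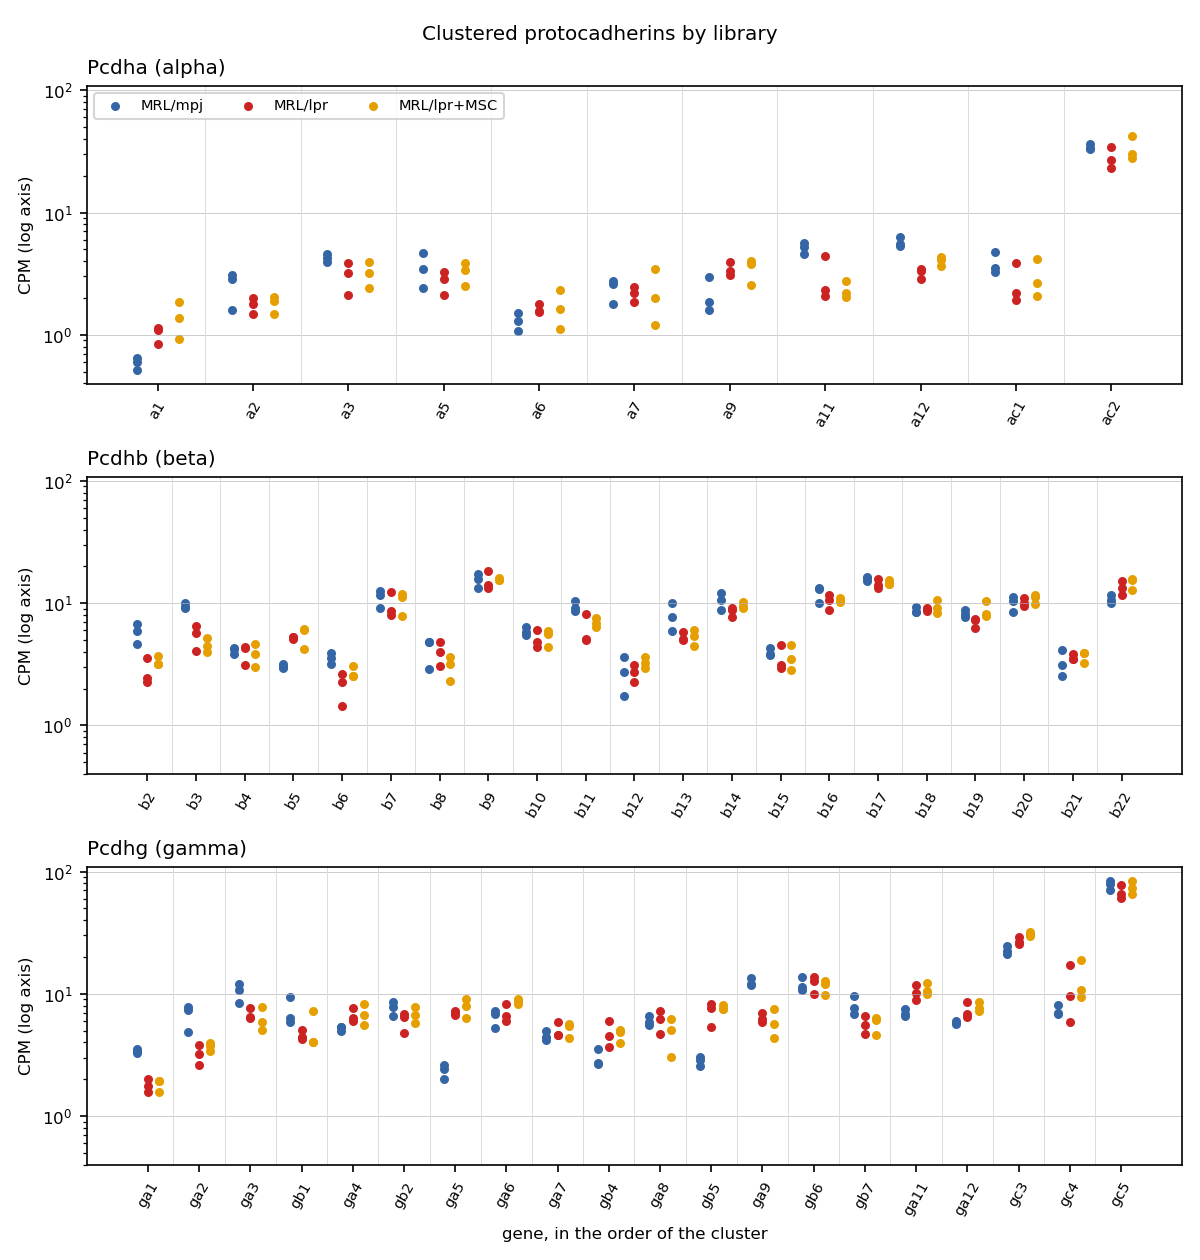
CPM of the 52 tested clustered protocadherins in each library (log axis, 1 point per library, colour for the group), in the order of the genes along the clusters. Pcdhgc5, Pcdhac2 and Pcdhgc3 stand above all others, and Pcdhga5, Pcdhgb5 and Pcdhga9 show points of MRL/mpj apart from those of both MRL/lpr groups.

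Among the alternate isoforms, mean levels over the 9 libraries were lower. The highest alpha gene was Pcdha12 at 4.31 CPM and the lowest tested was Pcdha1 at 1.00 CPM. Beta genes ran from 0.333 CPM for Pcdhb1, which had 3 to 19 counts per library, to 15.4 CPM for Pcdhb9. Gamma A genes ran from 2.34 CPM for Pcdhga1 to 9.41 CPM for Pcdhga11. In gamma B, Pcdhgb6 was highest at 11.9 CPM, and Pcdhgb8 had at most 1 count per library. These are totals per gene, not per length.

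The levels were also summed over each subcluster. The 12 alternate alpha genes summed to 28.1 ± 2.4 CPM in MRL/mpj (SD, n = 3), 22.3 ± 2.5 in MRL/lpr and 23.6 ± 2.5 in MRL/lpr+MSC. The alpha C-type genes summed to 38.2 ± 2.5 CPM in MRL/mpj, 30.8 ± 6.7 in MRL/lpr and 36.3 ± 8.8 in MRL/lpr+MSC. Their log2 ratio to MRL/mpj was -0.31 in MRL/lpr, near that of the alternate alpha genes (-0.33), but the libraries overlapped. Beta genes summed to 166.3 ± 5.7 CPM in MRL/mpj, 147.6 ± 10.6 in MRL/lpr and 156.1 ± 4.0 in MRL/lpr+MSC. Gamma A genes summed to 70.2 ± 1.4, 67.5 ± 4.2 and 69.6 ± 3.2 CPM in the same order, and gamma B genes to 40.6 ± 1.7, 40.3 ± 3.7 and 41.3 ± 3.0 CPM. The 3 gamma C-type genes summed to 107.4 ± 4.9, 106.1 ± 3.5 and 117.9 ± 4.5 CPM, with the MRL/lpr+MSC libraries (114.5 to 123.1 CPM) above those of MRL/mpj (102.7 to 112.6 CPM). The gamma A and gamma B sums differed between groups by less than the SD within at least 1 group. The alpha sums were lower in every MRL/lpr library (20.8 to 25.2 CPM) than in every MRL/mpj library (25.3 to 29.8 CPM). The lowest MRL/mpj and the highest MRL/lpr library were nearly level. Beta sums were also apart, at 141.3 to 159.8 CPM against 159.9 to 171.0 CPM, again with these libraries of each group nearly level. The order depends on the scaling: by library size alone the beta sums overlapped, at 148.4 to 164.5 CPM in MRL/lpr and 151.4 to 165.5 CPM in MRL/mpj. The alpha sums then overlapped as well, at 22.02 to 25.9 CPM against 24.2 to 28.9 CPM. Library size alone also raises the median log2 fold change of all genes tested between MRL/lpr and MRL/mpj from 0.03 to 0.15.

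**Figure D2:**
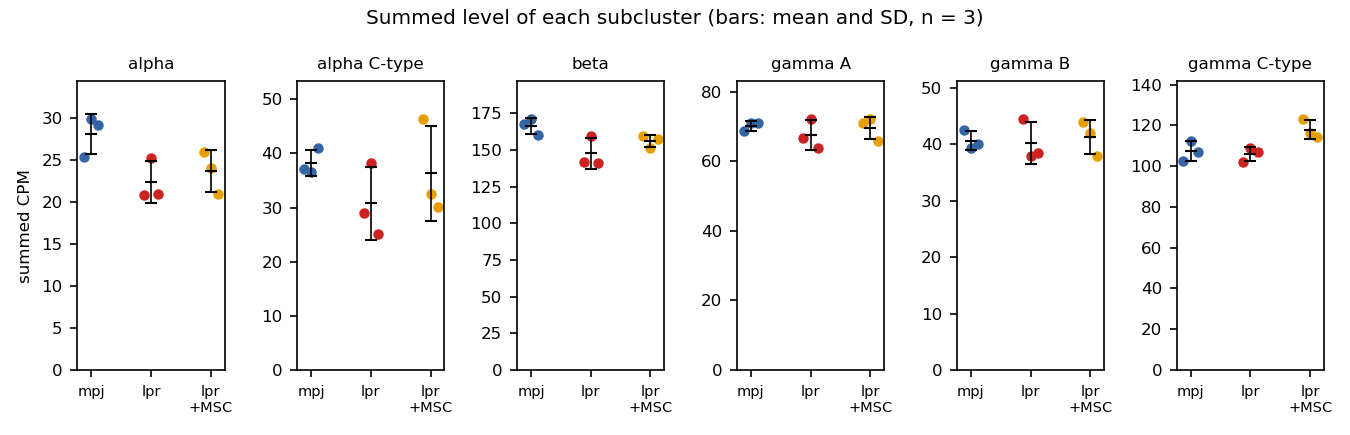
Summed CPM of the genes of each subcluster in each library, with the mean and SD of 3 libraries per group. The gamma A sums lie at 70.2, 67.5 and 69.6 CPM on average in MRL/mpj, then MRL/lpr, then MRL/lpr+MSC, and each panel starts at 0.

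Single isoforms were then tested. Between MRL/lpr and MRL/mpj, 8 of the 52 tested clustered protocadherins, or 15.4%, were differentially expressed (adjusted p below 0.05 and at least 1.5-fold, limma voom), against 5.74% of all genes tested. Of these 3 were higher (all genes, 3.47%) and 5 lower (all genes, 2.27%). Between MRL/lpr+MSC and MRL/mpj 7 of 52, or 13.5%, passed, against 3.36% of all genes. There 3 were higher (all genes, 1.86%) and 4 lower (all genes, 1.5%). Both comparisons used the same MRL/mpj libraries. The median log2 fold change of the 52 genes was -0.15 and -0.12, and that of all genes tested 0.03 and 0.00. In MRL/lpr the libraries of the groups did not overlap for 27 of the 52 genes (51.9%), 12 higher and 15 lower, where 38.1% of all genes did not overlap. In MRL/lpr+MSC this held for 24 genes (46.2%), 12 higher and 12 lower, against 29.4% of all genes. These counts rest on few mice. The number called in MRL/lpr was 1 without MRL/mpj replicate 1, 2 without replicate 2, 1 without replicate 3 and 2 without MRL/lpr replicate 1. It was 11 without MRL/lpr replicate 2 and 8 without MRL/lpr replicate 3. Calls over all genes in these fits were, in the same order, 214, 204, 129, 298, 1477 and 1205, against 959 with every library. In MRL/lpr+MSC the number called was 2 without any 1 of the 3 MRL/mpj libraries. It was 9, 5 and 3 without MRL/lpr+MSC replicate 1, 2 and 3. Calls over all genes in these fits were 177, 189 and 159, then 1350, 317 and 237, against 544 with every library.

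**Figure D3:**
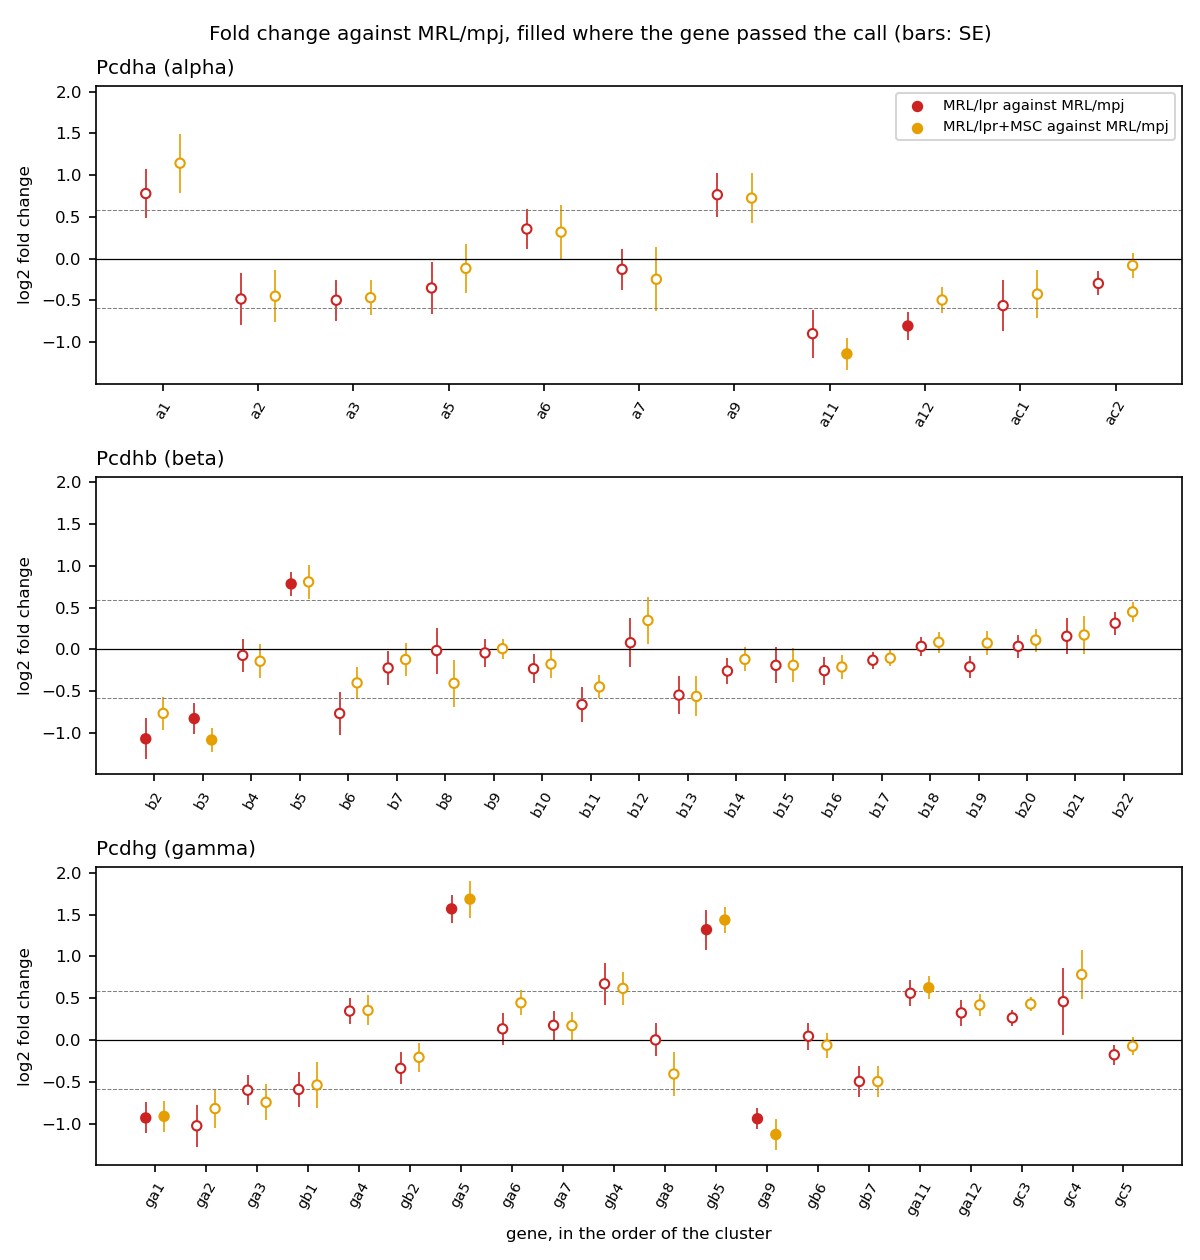
Log2 fold change against MRL/mpj, with its standard error, of the 52 tested clustered protocadherins in the order of the genes along the clusters; filled points passed the call and dashed lines mark 1.5-fold. Pcdhga5 (1.57 and 1.69) and Pcdhgb5 (1.32 and 1.44) were highest in MRL/lpr and MRL/lpr+MSC.

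The largest rises were those of Pcdhga5 and Pcdhgb5 in the gamma cluster. Pcdhga5 had 2.45, 2.61 and 2.01 CPM in the MRL/mpj libraries, 7.23, 6.67 and 7.05 CPM in MRL/lpr and 7.92, 9.05 and 6.39 CPM in MRL/lpr+MSC. Every library of both MRL/lpr groups was over the highest MRL/mpj library. It rose 2.97-fold in MRL/lpr (log2 1.57, SE 0.17, adjusted p = 0.0059) and 3.22-fold in MRL/lpr+MSC (log2 1.69, SE 0.22, adjusted p = 0.0089). Pcdhgb5 had 3.05, 2.87 and 2.55 CPM in MRL/mpj, 7.72, 8.29 and 5.35 CPM in MRL/lpr and 7.50, 7.53 and 8.11 CPM in MRL/lpr+MSC. Again no library overlapped with MRL/mpj, and the rise was 2.498-fold in MRL/lpr (log2 1.32, SE 0.24, adjusted p = 0.025) and 2.71-fold in MRL/lpr+MSC (log2 1.44, SE 0.15, adjusted p = 0.0045). Pcdhga11 had 6.89, 7.50 and 6.56 CPM in MRL/mpj, 10.2, 11.9 and 8.96 CPM in MRL/lpr and 10.5, 12.2 and 10.02 CPM in MRL/lpr+MSC. Its groups did not overlap either, but it passed the call only in MRL/lpr+MSC (log2 0.63, SE 0.14, adjusted p = 0.049) and had a log2 fold change of 0.56 (SE 0.15, adjusted p = 0.066) in MRL/lpr. Of the 6 fits of MRL/lpr that left out 1 library, Pcdhga11 passed in 1, that without MRL/lpr replicate 3 (log2 0.65).

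Among the gamma genes the falls were those of Pcdhga9 and Pcdhga1. Pcdhga9 had 13.4, 11.8 and 12.04 CPM in MRL/mpj, 6.99, 5.87 and 6.24 CPM in MRL/lpr and 7.56, 5.68 and 4.39 CPM in MRL/lpr+MSC. It fell in MRL/lpr (log2 -0.94, SE 0.12, adjusted p = 0.010) and in MRL/lpr+MSC (log2 -1.13, SE 0.19, adjusted p = 0.022). Pcdhga1, the first gene of the gamma cluster, had 3.30, 3.43 and 3.53 CPM in MRL/mpj, 1.76, 1.57 and 1.99 CPM in MRL/lpr and 1.94, 1.57 and 1.95 CPM in MRL/lpr+MSC. It fell 1.91-fold and 1.88-fold, with log2 fold changes of -0.93 (SE 0.19, adjusted p = 0.030) and -0.91 (SE 0.19, adjusted p = 0.040). Every library of either MRL/lpr group was below every MRL/mpj library for both genes.

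Pcdhgb5 and Pcdhga9 are neighbours in the gamma cluster. Per kilobase of unshared exon, the mean level of Pcdhga9 was 3.58 CPM in MRL/mpj, 1.83 in MRL/lpr and 1.69 in MRL/lpr+MSC, and that of Pcdhgb5 was 0.612, 1.54 and 1.67 CPM. The neighbours were thus far apart in MRL/mpj and close in both MRL/lpr groups. As a share of the gamma B counts, Pcdhgb5 made up 6.94% ± 0.5 in MRL/mpj (SD, n = 3), 17.7% ± 4.0 in MRL/lpr and 18.8% ± 2.3 in MRL/lpr+MSC. Within gamma A, Pcdhga9 held 17.7% ± 1.6, 9.47% ± 1.2 and 8.405% ± 2.1 in the same order, and Pcdhga5 held 3.36% ± 0.5, 10.4% ± 1.0 and 11.1% ± 1.4. These shares do not depend on the scaling between libraries. The shares of these genes thus differed between MRL/mpj and both MRL/lpr groups, but the genes were picked because they passed the call in the same libraries. The composition of the gamma A and gamma B counts as a whole was not tested.

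**Figure D4:**
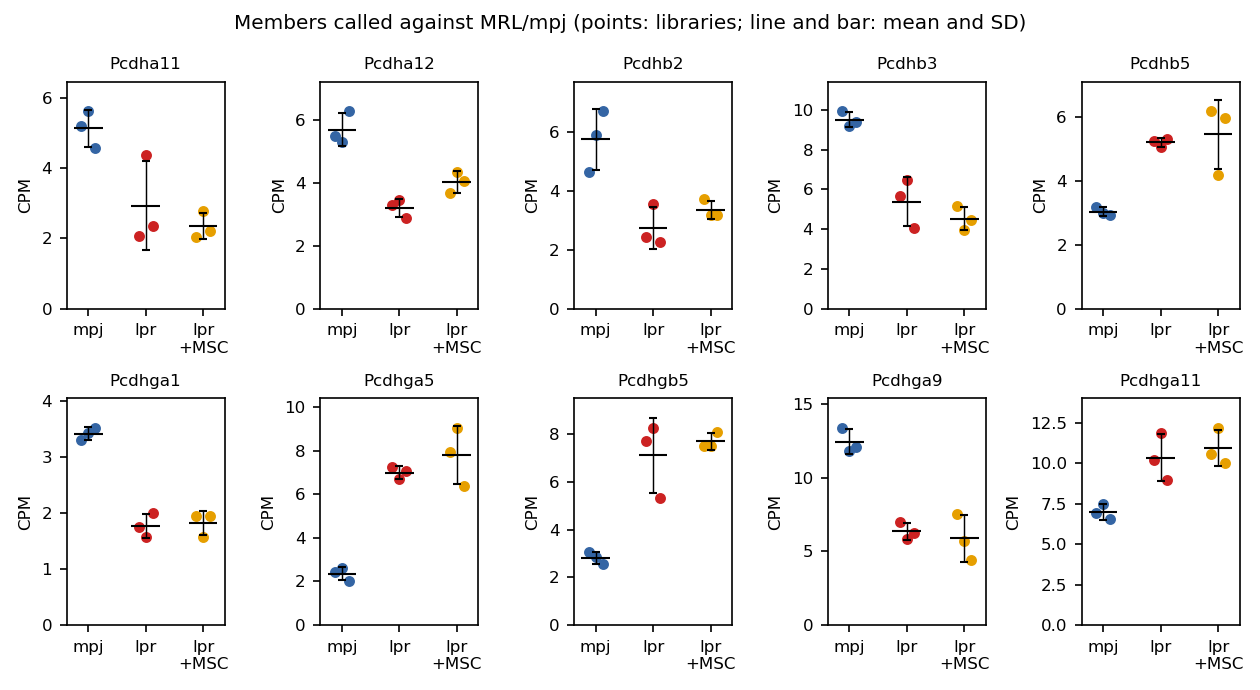
CPM in each library of the 10 clustered protocadherins that passed the call in MRL/lpr, in MRL/lpr+MSC or in both against MRL/mpj, with the mean (line) and SD (bar) of 3 libraries; each axis starts at 0. Pcdhb5, Pcdhga5, Pcdhgb5 and Pcdhga11 are higher in both MRL/lpr groups and the other 6 lower.

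Of the beta genes, Pcdhb3 and Pcdhb2 fell and Pcdhb5 rose. Pcdhb3 had 9.94, 9.21 and 9.38 CPM in MRL/mpj, 5.65, 6.46 and 4.03 CPM in MRL/lpr and 5.14, 3.97 and 4.48 CPM in MRL/lpr+MSC. It was lower in all libraries of both MRL/lpr groups, with log2 fold changes of -0.83 (SE 0.18, adjusted p = 0.040) and -1.08 (SE 0.14, adjusted p = 0.0084). Pcdhb2, its upstream neighbour, had 4.65, 5.91 and 6.73 CPM in MRL/mpj, 2.42, 3.57 and 2.25 CPM in MRL/lpr and 3.73, 3.19 and 3.19 CPM in MRL/lpr+MSC. It fell 2.10-fold in MRL/lpr (log2 -1.07, SE 0.24, adjusted p = 0.043), and its log2 fold change of -0.77 in MRL/lpr+MSC did not pass (SE 0.20, adjusted p = 0.072). Pcdhb5 had 3.20, 3.00 and 2.93 CPM in MRL/mpj, 5.27, 5.06 and 5.31 CPM in MRL/lpr and 6.19, 4.20 and 5.99 CPM in MRL/lpr+MSC, without overlap. Its rise passed in MRL/lpr (log2 0.78, SE 0.15, adjusted p = 0.027), and in MRL/lpr+MSC the log2 fold change was 0.81 (SE 0.20, adjusted p = 0.070). By annotated position, beta exons overlap no others except between Pcdhb21 and Pcdhb22 and where an antisense gene overlaps Pcdhb12. Whether reads fit the sequence of several beta genes was not tested. For Pcdhb9, the most abundant beta gene, log2 fold changes were -0.04 (SE 0.16) and 0.01 (SE 0.12).

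Called alpha genes were both lower. Pcdha12 had 5.49, 5.31 and 6.29 CPM in MRL/mpj, 3.30, 3.44 and 2.89 CPM in MRL/lpr and 3.67, 4.34 and 4.08 CPM in MRL/lpr+MSC. Its fall passed in MRL/lpr (log2 -0.81, SE 0.16, adjusted p = 0.032), and the MRL/lpr+MSC libraries lay between the other groups (log2 -0.49, SE 0.16, adjusted p = 0.12). Pcdha11 had 5.20, 5.61 and 4.56 CPM in MRL/mpj, 2.07, 4.38 and 2.33 CPM in MRL/lpr and 2.05, 2.77 and 2.22 CPM in MRL/lpr+MSC. Here MRL/lpr replicate 2 came close to MRL/mpj, and the fall passed in MRL/lpr+MSC (log2 -1.14, SE 0.19, adjusted p = 0.025) and not in MRL/lpr (log2 -0.90, SE 0.29, adjusted p = 0.093). Of the 6 fits of MRL/lpr that left out 1 library, Pcdha11 passed in 1, that without MRL/lpr replicate 2 (log2 -1.22).

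Few of these calls survived the loss of every library in turn. In MRL/lpr only Pcdhga5 stayed differentially expressed whichever library was left out. Pcdhga9 lost the call without MRL/mpj replicate 1 or 3. Pcdhgb5, Pcdhb5, Pcdhb3, Pcdha12 and Pcdhga1 lost it without any 1 MRL/mpj library or MRL/lpr replicate 1, and Pcdhb2 also without MRL/lpr replicate 3. In MRL/lpr+MSC, Pcdhgb5 and Pcdhb3 stayed called in all 6 fits, and Pcdhga5 lost the call without any 1 MRL/mpj library. Pcdha11 lost it without any 1 MRL/mpj library or MRL/lpr+MSC replicate 3, and Pcdhga9, Pcdhga1 and Pcdhga11 lost it in all fits but that without MRL/lpr+MSC replicate 1. No log2 fold change of these genes changed sign in any of these fits.

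Markers of neurons also differed between groups. The summed level of 10 general neuronal markers was 7726 to 8891 CPM in MRL/mpj, 6058 to 6764 CPM in MRL/lpr and 6470 to 9453 CPM in MRL/lpr+MSC. None of the 10 passed the call, all 10 had negative log2 fold changes in MRL/lpr (median -0.27), and 7 of 10 did in MRL/lpr+MSC (median -0.17). Of 10 markers of hippocampal principal neurons, 2 fell in MRL/lpr and 1 in MRL/lpr+MSC. Fibcd1, a marker of CA1 pyramidal cells, passed in both, with log2 fold changes of -1.10 and -0.79. The 8 markers of striatal neurons summed to 90.7 to 101.0 CPM in MRL/mpj, 136.7 to 187.5 CPM in MRL/lpr and 93.8 to 241.4 CPM in MRL/lpr+MSC. The part of these differences in the results on protocadherins was not tested.

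No C-type gene was called in either comparison. Pcdhgc3 came nearest, with 24.7, 22.2 and 21.2 CPM in MRL/mpj, 26.7, 25.3 and 29.3 CPM in MRL/lpr and 29.6, 31.95 and 30.6 CPM in MRL/lpr+MSC, without overlap with MRL/mpj. Its log2 fold change of 0.43 in MRL/lpr+MSC (SE 0.09, adjusted p = 0.040) stayed under 1.5-fold, and in MRL/lpr it was 0.27 (SE 0.09, adjusted p = 0.12). Pcdhgc5, the last gene of the gamma cluster, had 70.0, 83.5 and 78.6 CPM in MRL/mpj, 66.1, 77.8 and 60.4 CPM in MRL/lpr and 84.0, 73.55 and 65.0 CPM in MRL/lpr+MSC, all overlapping. The 95% interval of its log2 fold change ran from -0.45 to 0.10 in MRL/lpr and from -0.34 to 0.19 in MRL/lpr+MSC, within 1.5-fold. Pcdhac2 had 33.5, 33.3 and 36.3 CPM in MRL/mpj, 26.8, 34.3 and 23.2 CPM in MRL/lpr and 42.1, 30.0 and 27.9 CPM in MRL/lpr+MSC, also overlapping. Pcdhac1 ranged from 1.91 to 4.72 CPM over the 9 libraries, with log2 fold changes of -0.56 (SE 0.30, adjusted p = 0.26) and -0.42 (SE 0.28, adjusted p = 0.42).

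Pcdhgc4, which is needed for the survival of inhibitory interneurons, varied between mice of one group. It had 8.04, 6.81 and 6.997 CPM in MRL/mpj, 9.51, 5.91 and 17.3 CPM in MRL/lpr and 9.45, 10.7 and 18.9 CPM in MRL/lpr+MSC. The third library of each MRL/lpr group was the highest of its group, and the log2 fold changes of 0.46 (SE 0.40, adjusted p = 0.47) and 0.78 (SE 0.29, adjusted p = 0.17) did not pass. In MRL/lpr+MSC it was called only in the fit without MRL/lpr+MSC replicate 1 (log2 0.98). The summed level of 10 interneuron markers was likewise high in MRL/lpr replicate 3 (1718 CPM) and MRL/lpr+MSC replicate 3 (1411 CPM), against 492.0 to 833.7 CPM in the other 7 libraries. Gad2, which makes GABA, stood at 567.7 and 430.3 CPM in these libraries and between 100.9 and 214.1 CPM elsewhere. Of the 10 markers, 5 (Gad1, Gad2, Slc32a1, Lhx6 and Dlx1) were higher in both of these libraries than in any of the other 7, and the other 5 (Pvalb, Sst, Vip, Npy and Reln) were not. Vip, at 5.31 CPM in MRL/lpr replicate 3, lay below the other 7 libraries (6.29 to 18.9 CPM). Against MRL/mpj, 3 of the 10 markers were called lower in MRL/lpr and 0 higher. Sums of 8 thalamic markers (320.0 and 349.5 CPM against 123.7 to 278.4 CPM) and of 8 striatal markers (187.5 and 241.4 CPM against 90.7 to 162.8 CPM) were also highest in MRL/lpr replicate 3 and MRL/lpr+MSC replicate 3. The part of these markers in the level of Pcdhgc4 was not tested.

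**Figure D5:**
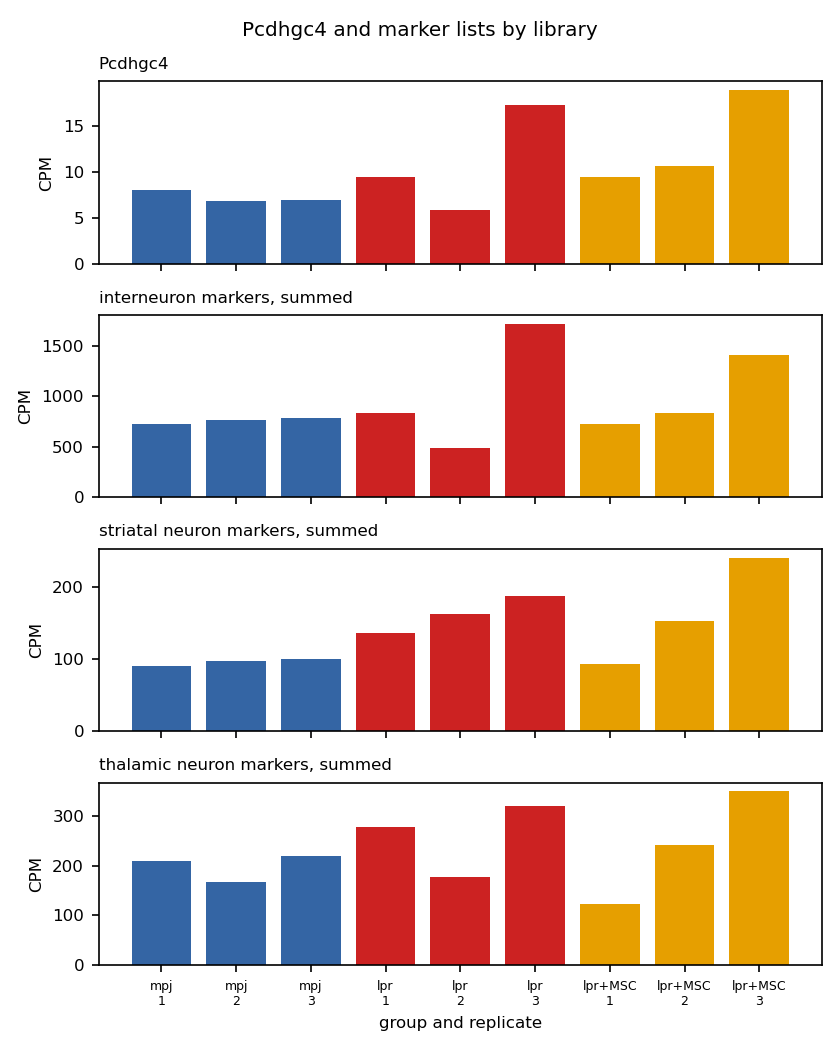
CPM of Pcdhgc4 and summed CPM of the interneuron, striatal and thalamic neuron marker lists in each of the 9 libraries (bars from 0, colour for the group). MRL/lpr replicate 3 and MRL/lpr+MSC replicate 3 are highest in all 4 panels, with 17.3 and 18.9 CPM of Pcdhgc4.

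The following neighbours were chosen after their values were seen. The 4 genes at the start of the gamma cluster, Pcdhga1, Pcdhga2, Pcdhga3 and Pcdhgb1, all had MRL/lpr libraries below every MRL/mpj library, with log2 fold changes of -0.93, -1.03, -0.60 and -0.59. Of these Pcdhga1 was called, and the adjusted p of the others ran from 0.052 for Pcdhga2 to 0.12 for Pcdhgb1. In MRL/lpr+MSC the values were -0.91, -0.82, -0.75 and -0.54, with Pcdhgb1 overlapping. Next come Pcdhga4, with 0.35 in both comparisons, and Pcdhgb2, with -0.34 in MRL/lpr and -0.21 in MRL/lpr+MSC, neither called. Further downstream Pcdhga5 and Pcdhgb5 rose and Pcdhga9 fell. The 4 tested genes between Pcdhga5 and Pcdhgb5 had values of 0.00 to 0.67 in MRL/lpr and -0.41 to 0.62 in MRL/lpr+MSC, with none called. Pcdhgb6, next after Pcdhga9, had log2 fold changes of 0.04 (SE 0.16) and -0.06 (SE 0.15). In the beta cluster, the last 5 genes from Pcdhb18 to Pcdhb22 had log2 fold changes of -0.21 to 0.31 in MRL/lpr and 0.07 to 0.45 in MRL/lpr+MSC. The called genes Pcdhb2, Pcdhb3 and Pcdhb5 lie among its first 5, as does Pcdhb4, with -0.07 and -0.14. From Pcdhb6 to Pcdhb17 the values were -0.77 to 0.08 in MRL/lpr and -0.56 to 0.35 in MRL/lpr+MSC, with none called.

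Other genes around the clusters gave a single call. Within 1 Mb of either end, 35 further genes were tested in MRL/lpr and 34 in MRL/lpr+MSC, and 1 was called in each, Gnpda1, which makes an enzyme of amino sugar breakdown (log2 1.01, SE 0.13, and 0.96, SE 0.10). Of these, 3 and 2 genes lay between the protocadherin genes themselves, and 0 of them were called. Of the rest of chromosome 18, 21 of 363 genes (5.79%) were called in MRL/lpr and 13 of 352 (3.69%) in MRL/lpr+MSC, close to the 5.74% and 3.36% of all genes. No difference between these shares and those of the clustered protocadherins was tested.

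Stem cells were compared with none among MRL/lpr mice in the third comparison. No clustered protocadherin and no other gene passed (0 of 16758 genes, 0% called, lowest adjusted p = 0.93, limma voom), with 646 genes at an unadjusted p below 0.05, none of them among the 52 protocadherins, and 0 genes called by limma-trend. Groups did not overlap for 4 of the 52 (7.69%, all higher in MRL/lpr+MSC), against 9.97% of all genes. These were Pcdha12, Pcdhb14, Pcdhb19 and Pcdhgc3. The smallest unadjusted p among positive values were those of Pcdhga6 (log2 0.32, SE 0.16), Pcdhgc3 (0.18, SE 0.09) and Pcdha12 (0.32, SE 0.17), and among negative values those of Pcdhb8 (-0.38, SE 0.26), Pcdhga8 (-0.40, SE 0.31) and Pcdhb3 (-0.25, SE 0.22). Log2 fold changes of the 52 genes ran from -0.40 to 0.38 with a median of 0.06. For the 10 genes called against MRL/mpj this comparison is the test of whether the 2 MRL/lpr groups differed, and the 95% interval was -0.26 to 0.51 for Pcdhga5, -0.33 to 0.58 for Pcdhgb5, -0.69 to 0.33 for Pcdhga9 and -0.78 to 0.29 for Pcdhb3. The interval lay within 1.5-fold either way for 23 of the 52 genes, and it reached beyond 1.5-fold for the other 29.

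Genes that act on or with the clustered protocadherins were taken from lists. Of 29 genes for promoter choice and chromatin at the clusters, 1 rose and 1 fell in MRL/lpr, and 0 passed in MRL/lpr+MSC. The medians were 0.00 and 0.02, and the gene that fell is not reported here. Rest, a repressor of neuronal genes, rose from 7.71 ± 1.9 to 13.6 ± 0.97 CPM (log2 0.84, SE 0.18, adjusted p = 0.036). In MRL/lpr+MSC the lowest p in this list was that of Wapl, which releases cohesin from DNA (log2 -0.32, SE 0.06, adjusted p = 0.041), short of 1.5-fold. Of 30 partners and signalling genes none passed in either comparison, and 23 of 30 had negative values in each (medians -0.11 and -0.09). Of all genes tested, 7671 of 16697 had negative values in MRL/lpr and 7999 of 16196 in MRL/lpr+MSC. Abi1, of the WAVE complex that links protocadherins to actin, had an adjusted p below the threshold in both but stayed under 1.5-fold, with log2 fold changes of -0.47 (SE 0.07, adjusted p = 0.017) and -0.43 (SE 0.08, adjusted p = 0.035).

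Protocadherins outside the clusters and other cadherins formed the last lists. None of 12 non-clustered protocadherins passed in either comparison (medians 0.23 and 0.30). The lowest p were those of Pcdh12, an endothelial protocadherin, in MRL/lpr (log2 1.56, SE 0.38, adjusted p = 0.051) and of Pcdh11x in MRL/lpr+MSC (log2 1.09, SE 0.24, adjusted p = 0.052). Of 27 other cadherins of the brain 1 rose in each, the giant atypical cadherin Fat1, from 46.4 ± 0.36 CPM to 73.4 ± 6.6 in MRL/lpr (log2 0.67, SE 0.08, adjusted p = 0.0089) and 72.5 ± 9.5 in MRL/lpr+MSC (log2 0.63, SE 0.11, adjusted p = 0.024). With stem cells against none among MRL/lpr mice 0 genes of these 4 lists passed.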

How the data were processed

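Per the labels, poly-A RNA of the hippocampus was sequenced from a library kit that keeps no strand. The authors aligned reads with STAR and counted them with HTSeq (the submitters' processing notes name TopHat2 and GRCm38), and deposited a matrix of raw counts per gene and 1 table of FPKM per library. The FPKM tables were used only to check that their columns were multiples of the counts. Genes were named from GENCODE M21 (GRCm38), and unshared exon bases were computed from it. A table of normalised values released with the study was read only to check the labels.

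Counts were scaled by TMM (CPM) and tested by limma voom with robust moderation (limma 3.58.1, R 4.3.3), each comparison on its own 6 libraries. Genes needed at least the CPM of 10 counts in a median library in 3 libraries and a total of 15. Adjusted p is Benjamini-Hochberg over all genes tested. Genes with adjusted p below 0.05 and 1.5-fold were called. The quasi-likelihood count test first planned was not run, and limma voom, named in the plan as its substitute, took its place. The fit was tested on simulated data. Lists and members were chosen with earlier results of these data known.

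Named genes are all called members, the C-type genes, the highest and lowest member of each subcluster, the 3 with the lowest p in each direction per comparison, and in the other lists up to 4 called genes, or else that with the lowest p. Cell type marker lists served to describe the libraries, and those of serotonergic neurons (0 of 3 tested called), astrocytes (0 of 9), oligodendrocytes (0 of 8), their precursors (0 of 5), microglia (0 of 8), choroid plexus (0 of 8), meninges (0 of 8) and thalamic neurons (0 of 8) had no called gene in any comparison. Interneurons had 3 lower, endothelial cells 2 higher and striatal neurons 1 higher in MRL/lpr, and endothelial cells 2 higher in MRL/lpr+MSC. Where labels name no separate litter or day, p-values measure the spread between these mice. Results for 2 genes of the other lists are not reported here.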

Additional observations from a re-analysis of the deposited data

How the results depend on the processing

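The number of clustered protocadherins called stayed within 1.5 times of the reported one under median-of-ratios size factors, library size alone, no filter, a filter of 1 CPM and one fit of all 9 libraries, and under limma-trend, which was chosen after seeing the data (8 to 9 in MRL/lpr, 5 to 7 in MRL/lpr+MSC). Calls over all genes in these fits ran from 854 to 1338 in MRL/lpr and from 435 to 623 in MRL/lpr+MSC. Tested against a 1.5-fold change, 0 clustered protocadherins passed in MRL/lpr and 0 in MRL/lpr+MSC, and 102 and 100 of all genes. Leaving out 1 library gave 1 to 11 in MRL/lpr and 2 to 9 in MRL/lpr+MSC, and 129 to 1477 and 159 to 1350 of all genes, against 959 and 544. The comparison of both MRL/lpr groups gave 0 genes in every fit. With the replicate number as a replicate block, 3 clustered protocadherins were called in each comparison with MRL/mpj (2 higher and 1 lower), while the calls over all genes went to 1141 in MRL/lpr and 288 in MRL/lpr+MSC. The numbers are not said to pair the mice. Against MRL/mpj, the correlations of same-numbered deviations were -0.02, 0.13 and 0.05 in MRL/lpr and -0.06, 0.13 and 0.22 in MRL/lpr+MSC. Between the MRL/lpr groups they were -0.21, 0.25 and 0.40. Whether the numbers link mice was not tested. The causes were not tested. The planned fits with edgeR and DESeq2 were not run. With 3 mice a group, the interval of the difference between the MRL/lpr groups reached beyond 1.5-fold for 29 of 52 clustered protocadherins.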
